A study of Mus musculus with 12 samples.

Results

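The organic anion and cation transporters described here are 9 genes whose products carry drugs, toxins, urate, carnitine and other charged solutes across the proximal tubule: Slc22a2, Slc22a4, Slc22a5, Slc22a6, Slc22a7, Slc22a8, Slc22a12, Slc47a1 and Slco4c1. They were chosen by symbol from the 55471 genes of the expression table, and all 9 had enough reads to be tested among 18093 genes. RNA came from 12 left kidneys of C57/BL6 mice, 8 to 12 weeks old by the protocol, either wild type or knockout for Sprr2f, which encodes a small proline-rich epithelial protein. The left ureter was clamped (unilateral ureteral obstruction), and kidneys were taken at day 0 (2 wild type, 4 knockout) and at day 5 (3 wild type, 3 knockout). Whether day 0 kidneys were sham-operated, how the knockout allele was made and the sex of each mouse are not given in the sources used here, although the series title speaks of female mice. The labels name separate samples and no cultures or litters, so each p-value below reflects only how these samples vary, which may be technical.

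Libraries held 16567256 to 19398882 reads counted to genes. Deposited Sprr2f levels were 26.9 to 58.8 CPM (reads per library scaled to a common total) in wild type at day 5, 0 to 4.07 in knockout at day 5 and 0 to 0.262 in all day 0 kidneys. The libraries carried 2 sex-chromosome transcript patterns. In 7 of them, the summed CPM of the Y-linked genes Ddx3y, Uty, Kdm5d and Eif2s3y was 112 to 170, and in the other 5 it was 0.281 to 0.979, with 481 to 893 CPM of Xist, the RNA of the inactive X chromosome. The Y-linked libraries were wild type day 0 replicate 1, wild type day 5 replicate 3, knockout day 5 replicate 2 and all 4 knockout libraries at day 0. Genotype at day 0 and obstruction in knockout are thus partly mixed with this pattern. The share of mitochondrial reads was 8.31 to 9.26% at day 0 and 3.89 to 4.34% at day 5.

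Proximal tubule cells clear organic ions by passing them from blood to urine through paired transporters on their basolateral and apical membranes. On the blood side, OAT1 (Slc22a6) and OAT3 (Slc22a8) take up organic anions in exchange for dicarboxylates, and OCT2 (Slc22a2) takes up organic cations. On the urine side, MATE1 (Slc47a1) releases cations in exchange for protons, URAT1 (Slc22a12) reabsorbs urate, and OCTN2 (Slc22a5) reabsorbs carnitine. Several of these genes are known to be expressed unequally in male and female rodent kidneys.

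The genes lie in several clusters of relatives. Slc22a6 (chromosome 19, 8618039 to 8628299, plus strand) begins 6204 bases after the end of Slc22a8 (chromosome 19, 8591254 to 8611835, plus strand), in GRCm38 with GENCODE M21. Slc22a12 is on the same chromosome (6535845 to 6543032, minus strand). Slc22a4 and Slc22a5 lie 91463 bases apart on chromosome 11 with Slc22a21 between them. RefSeq start windows (GRCm38.p6, 250 bases before to 50 bases after the start) were matched for 7 of the 9 genes. They were searched on both strands. The letters CAAAGTC, found in binding sites of HNF4, were in 0 of the 7 windows and in 4.44% of all 32851 windows. The TATA box, searched as TATAAA, was in 0 of the 7 and in 13.6% of all windows. The windows of the neighbouring organic anion transporter genes, whose values part ways below, are shown as Slc22a6 (chr19:8617746-8618045, plus strand) and Slc22a8 (chr19:8592932-8593231, plus strand). Neither holds CAAAGTC or TATAAA, the only letters searched over all windows, so no base is in capitals. Both windows shown do hold GTTAAT, letters found in binding sites of HNF1. The windows of Slc22a2, Slc22a4, Slc22a5, Slc22a12 and Slco4c1 hold these letters on neither strand. How often GTTAAT occurs over all windows was not tested, so the matches have no share to be set against. The RefSeq start of Slc22a8 lies inside the gene's GENCODE span. The absence of a match says only that the letters are not in these windows.
Slc22a6: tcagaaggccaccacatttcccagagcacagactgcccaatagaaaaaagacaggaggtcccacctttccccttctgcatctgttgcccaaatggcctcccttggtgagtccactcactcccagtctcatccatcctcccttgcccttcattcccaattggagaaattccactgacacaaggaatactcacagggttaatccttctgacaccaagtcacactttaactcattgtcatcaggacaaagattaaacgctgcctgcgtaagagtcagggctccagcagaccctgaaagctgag
Slc22a8: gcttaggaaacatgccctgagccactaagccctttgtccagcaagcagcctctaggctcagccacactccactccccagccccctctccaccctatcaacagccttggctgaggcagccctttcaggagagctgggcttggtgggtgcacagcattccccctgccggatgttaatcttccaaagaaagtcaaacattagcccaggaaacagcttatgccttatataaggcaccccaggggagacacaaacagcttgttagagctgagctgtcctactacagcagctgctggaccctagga

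All 9 transporter genes fell during obstruction in both genotypes. In wild type the 9 log2 fold changes ran from -3.48 to -1.16 (median -1.94), which is 11.2-fold to 2.23-fold lower, and in knockout from -2.80 to -0.97 (median -2.04). Over all tested genes the medians were 0.04 and 0.07, and limma called 22.6% of genes lower in wild type and 25.4% in knockout at an adjusted p under 0.05, with 24.5% and 29.4% higher. Scaled by library size only, this split of all tested genes moved from 4440 higher and 4087 lower to 8560 and 2001 in wild type, and from 5328 and 4589 to 10114 and 2179 in knockout. In every member and both genotypes, each day 5 library lay below each day 0 library of its genotype. The groups were separated in this direction for 30.7% of all tested genes in wild type and 25.6% in knockout. With the transcript pattern as a covariate, all 9 members were still called lower in limma in both genotypes. This fit takes the pattern difference to be equal at both days, although that of Slc22a8 changed between days (below). The knockout fold change then moved most in Slc22a8, to -3.84 ± 0.30 (adjusted p = 2.87e-07), and was -2.37 ± 0.17 for Slc22a6 (adjusted p = 1.42e-07), -1.67 ± 0.16 for Slc22a2 (adjusted p = 1.37e-06) and -1.21 ± 0.10 for Slc22a5 (adjusted p = 2.95e-07). Fold changes are on the scale of log2(scaled CPM + 0.5), where scaled CPM is CPM divided by a factor (TMM) that evens out library composition.

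**Figure D1:**
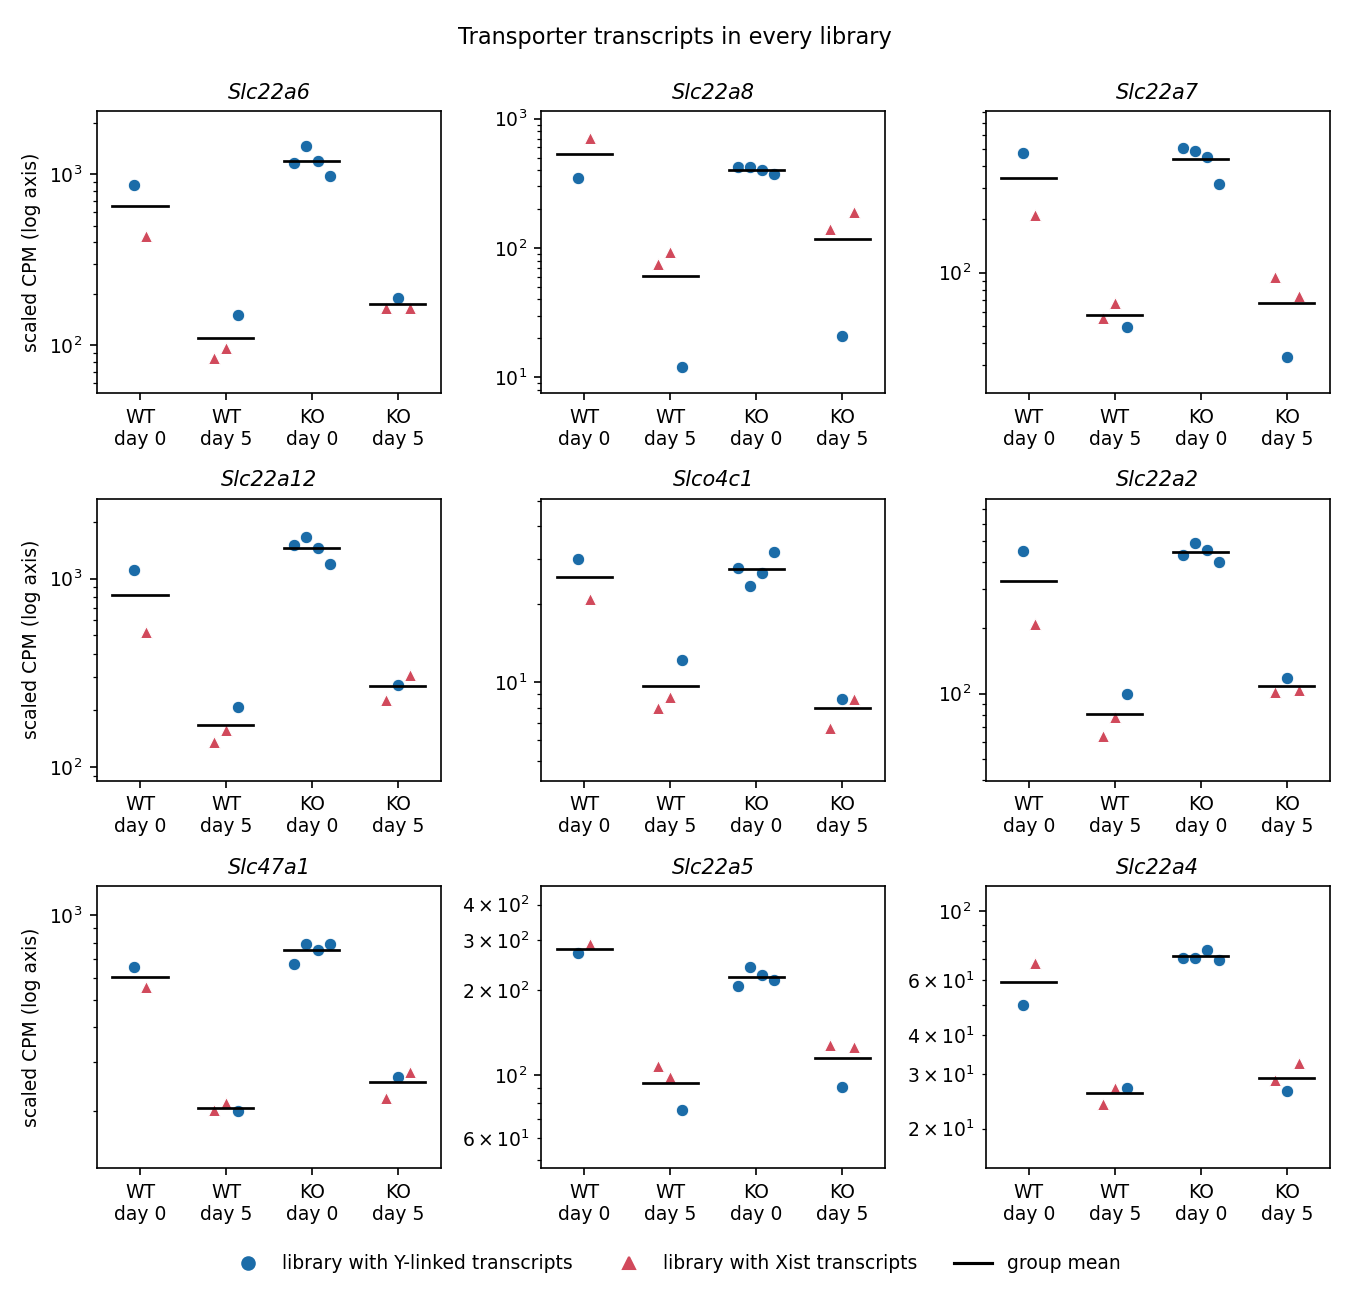
Scaled CPM (log axis) of each transporter gene in all 12 libraries, by genotype and day, with circles for libraries with Y-linked transcripts, triangles for libraries with Xist, and a line at the group mean. Every day 5 point lies below every day 0 point of its genotype, and the circles of Slc22a8 at day 5 (12.1 and 21.0 scaled CPM) lie under the triangles (75.0 to 189.8 scaled CPM).

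Slc22a6, the gene of OAT1, was among the more abundant members and lost most of its transcript. Wild type kidneys held 868 and 435 scaled CPM at day 0 and 84.1, 96.1 and 150.2 at day 5. In knockout it was 1163, 1455, 1194 and 976 at day 0 and 165, 189 and 166 at day 5. The wild type values at day 0 differed from each other, while the knockout libraries at day 5 lay close together. The log2 fold change was -2.52 ± 0.28 (SE) in wild type (limma, adjusted p = 1.06e-05) and -2.77 ± 0.23 in knockout (adjusted p = 7.23e-07), or 5.74-fold and 6.84-fold lower.

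Slc22a8, the gene of OAT3, fell the most in wild type and varied most between libraries. It stood at 349 and 713 scaled CPM in wild type at day 0 and at 75.0, 93.7 and 12.1 at day 5. Knockout kidneys had 424, 421, 398 and 373 at day 0 and 141, 21.0 and 189.8 at day 5. A single library in each genotype, wild type replicate 3 and knockout replicate 2, was far below the other libraries at day 5. The log2 fold change was -3.48 ± 0.88 in wild type (adjusted p = 0.00554) and -2.28 ± 0.73 in knockout (adjusted p = 0.0188). The wild type call ended without day 0 replicate 2 (-2.97, adjusted p = 0.0513), and the value was -2.56 without day 5 replicate 3 (adjusted p = 0.0158). The knockout call ended without day 5 replicate 2 (-1.30, adjusted p = 0.0876). With the transcript pattern as a covariate both genotypes fell by nearly the same amount, -3.87 ± 0.31 in wild type (adjusted p = 2.7e-07) and -3.84 ± 0.30 in knockout (adjusted p = 2.87e-07). That fit takes the pattern difference to be equal at both days. In a fit with a separate term for each day, the pattern difference of Slc22a8 changed by -1.81 between days. The near equality of the genotypes therefore rests on an assumption that may not hold for this gene.

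Slc22a7, the gene of OAT2, a transporter of organic anions and nucleotides, fell from 469.9 and 212 scaled CPM in wild type to 55.8, 67.5 and 49.4. In knockout it fell from 507, 483, 448 and 317 to 94.5, 33.6 and 73.9. The lowest day 5 library of each genotype was the one that was also lowest for Slc22a8. The log2 fold change was -2.46 ± 0.39 in wild type (adjusted p = 2.2e-04) and -2.80 ± 0.33 in knockout (adjusted p = 1.34e-05).

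Slc22a12, which encodes the apical urate transporter URAT1, stood at 1110.2 and 523 scaled CPM in wild type at day 0 and at 136, 158 and 207 at day 5. Its knockout values were 1501, 1655, 1447 and 1199.6 at day 0 and 226, 274 and 307 at day 5. The log2 fold changes were -2.21 ± 0.27 (adjusted p = 2.42e-05) and -2.43 ± 0.22 (adjusted p = 1.71e-06), in wild type and knockout. An opposite-strand gene, Nrxn2, covers 30.1% of its exonic bases, and whether counting used strand is not given in the sources used here. Nrxn2 itself held 8.72 to 18.3 scaled CPM over all libraries, far below Slc22a12. That level does not show how many Slc22a12 reads the overlap affected, which was not tested. Slco4c1, the gene of a basolateral transporter of cardiac glycosides and thyroid hormone, was the least abundant member, at 29.8 and 21.0 scaled CPM in wild type at day 0 and 7.99, 8.77 and 12.2 at day 5. In knockout it went from 27.6, 23.5, 26.3 and 31.8 to 6.70, 8.62 and 8.64. Its log2 fold change was -1.35 ± 0.20 in wild type (adjusted p = 1.35e-04), against -1.71 ± 0.17 in knockout (adjusted p = 3.21e-06).

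Transcripts of genes for both steps of cation secretion fell. Slc22a2, the gene of OCT2, the uptake step for creatinine and metformin, stood at 449 and 208 scaled CPM in wild type at day 0 and at 63.9, 78.4 and 99.0 at day 5. In knockout its values were 431, 488, 454 and 402 at day 0 and 102, 118 and 103 at day 5. The log2 fold changes were -1.94 ± 0.25 in wild type (adjusted p = 4.11e-05) and -2.04 ± 0.21 in knockout (adjusted p = 4.53e-06). Slc47a1, the gene of the apical exit step MATE1, had 653 and 555 scaled CPM in wild type at day 0 and 202, 214 and 200.5 at day 5. Knockout kidneys had 672, 792, 752 and 794 at day 0 and 222, 264 and 276 at day 5. Its libraries were the tightest of the 9 members around their fit, with log2 fold changes of -1.55 ± 0.12 (adjusted p = 5.64e-07) and -1.57 ± 0.10 (adjusted p = 8.93e-08).

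The carnitine and ergothioneine transporter genes also fell. Slc22a5, the gene of the sodium-coupled carnitine transporter OCTN2, went from 269.8 and 290.3 scaled CPM to 108, 98.2 and 75.2 in wild type. In knockout it went from 207, 241, 226 and 217 to 128, 91.1 and 126. This gave log2 fold changes of -1.59 ± 0.16 in wild type (adjusted p = 5.53e-06) and -0.97 ± 0.13 in knockout (adjusted p = 5.98e-05). Of its distinct 50-base transcript sequences, 26.3% also occur in Slc22a4, Slc22a21 or Gm12220, so part of its reads could not be assigned with certainty. Slc22a21 held 4.36 to 7.74 scaled CPM, and Gm12220 was at 0 in all libraries. These levels do not show how many Slc22a5 reads were affected. Slc22a4, the gene of the ergothioneine transporter OCTN1, stood at 50.1 and 68.2 scaled CPM in wild type at day 0 and at 23.9, 27.0 and 27.0 at day 5. The knockout libraries held 70.5, 70.5, 75.0 and 69.8 at day 0 and 28.6, 26.4 and 32.5 at day 5. The log2 fold change was -1.16 ± 0.13 in wild type (adjusted p = 1.07e-05), close to the -1.28 ± 0.11 of knockout (adjusted p = 6.88e-07).

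**Figure D2:**
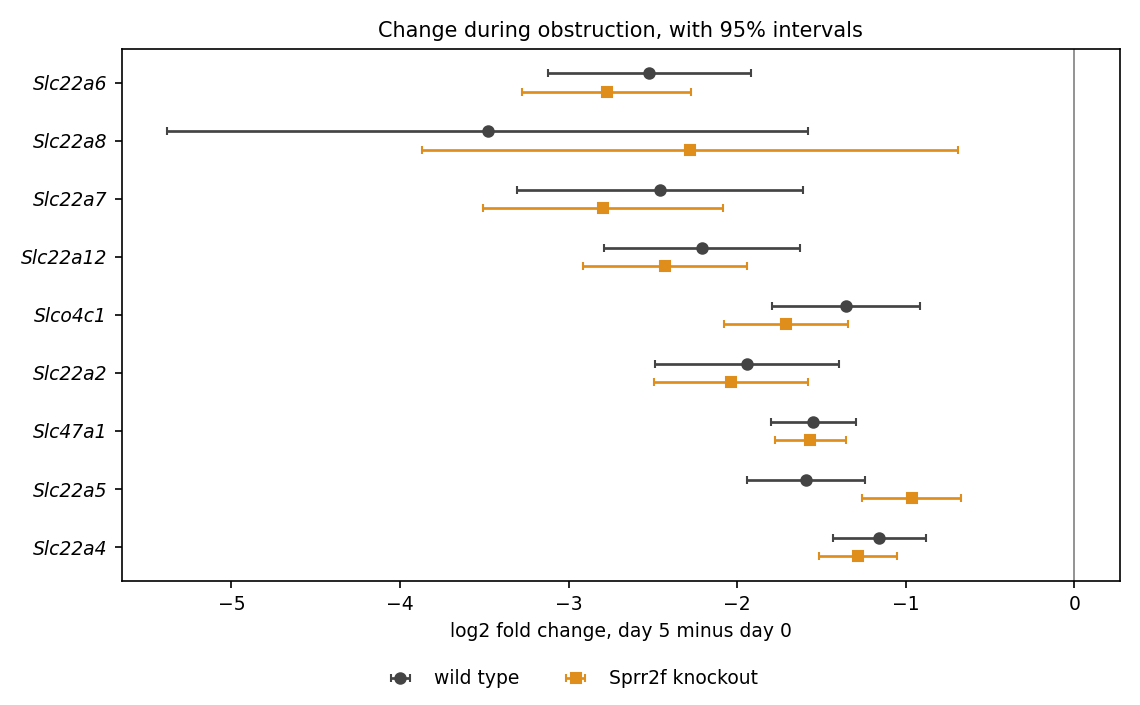
Log2 fold change from day 0 to day 5 of each transporter gene in wild type (circles) and knockout (squares), with 95% intervals from the limma fit. All 18 intervals lie below 0, the widest being those of Slc22a8 (-5.38 to -1.58 in wild type).

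Levels were compared between genes per kilobase of exon, with all exonic bases counted. Of the distinct 50-base sequences, 27.4% of those of Slc22a12 and 26.3% of those of Slc22a5 also occur in other genes. The levels of these genes per length are therefore less certain. At day 0 in wild type, Slc22a12 was highest at 361 ± 183 scaled CPM per kilobase (SD, n = 2). Slc47a1 (179 ± 20.3), Slc22a6 (164 ± 76.8), Slc22a7 (162 ± 86.7), Slc22a8 (136 ± 65.7) and Slc22a2 (132 ± 68.7) followed, neighbours that did not differ beyond their spread. Slc22a5 stood at 91.2 ± 4.72, Slc22a4 at 23.2 ± 5.03 and Slco4c1 at 5.18 ± 1.26. In knockout at day 0 (n = 4) the order began with Slc22a12 (641 ± 83.5), Slc22a6 (301 ± 49.5), Slc47a1 (222 ± 16.9) and Slc22a7 (209 ± 40.5), the last pair within their spread. At day 5 in wild type (n = 3) Slc22a12 (73.8 ± 16.1) and Slc47a1 (60.7 ± 2.12) led within their spread, ahead of Slc22a2 (32.4 ± 7.12), Slc22a5 (30.5 ± 5.42), Slc22a6 (27.7 ± 8.85) and Slc22a7 (27.4 ± 4.38). The last 4 of these lay within their spread.

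**Figure D3:**
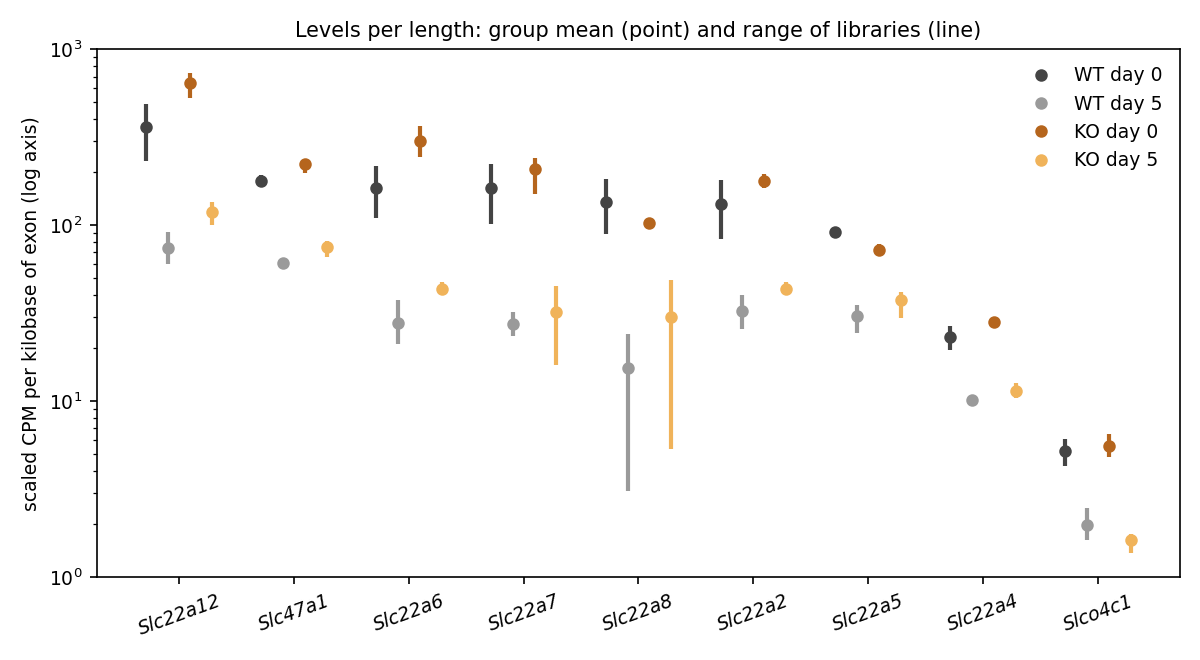
Scaled CPM per kilobase of exon (log axis) of each transporter gene, with the group mean as a point and the range of the libraries as a line. Slc22a12 is highest and Slco4c1 lowest in each of the 4 groups, and the longest line is that of Slc22a8 at day 5.

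The comparison of genotypes asks whether loss of Sprr2f changed transporter expression before or during obstruction. No member passed in limma or edgeR at either day. At day 0 the limma test called 0 of 9 members, against 0.0166% of all tested genes. At an unadjusted p under 0.05 in limma there were 5 members, against 15% of all tested genes. The edgeR test called 0, and DESeq2 called 2 (Slc22a6 and Slc22a12), against 2.67% of the 13873 genes to which it gave an adjusted p. At day 5 limma, edgeR and DESeq2 each called 0 of 9, against 0% of all genes with limma. In limma 3 members had an unadjusted p under 0.05, against 5.67% of all tested genes. Most differences were positive, with medians of 0.32 at day 0 and 0.30 at day 5. Slc22a6 was 0.95 ± 0.26 log2 units higher in knockout at day 0 (adjusted p = 0.151) and 0.69 ± 0.25 higher at day 5 (adjusted p = 0.834). For Slc22a12 these differences were 0.92 ± 0.25 (adjusted p = 0.151) and 0.70 ± 0.24 (adjusted p = 0.828). The genotypes did not overlap in 5 of 9 members at day 0 and 4 of 9 at day 5. In Slc22a6, Slc22a12 and Slc47a1 on both days, Slc22a4 at day 0 and Slc22a2 at day 5 each knockout library lay above each wild type library, as for 12.9% of all tested genes at day 0 and 5.72% at day 5. The differences were 0.29 ± 0.12 for Slc22a4 at day 0 (adjusted p = 0.295) and 0.44 ± 0.22 for Slc22a2 at day 5 (adjusted p = 0.925). The reverse order, seen for 12.4% of genes at day 0, held there for Slc22a5, with a difference of -0.33 ± 0.15 (adjusted p = 0.335). Slc47a1 had differences of 0.32 ± 0.11 (adjusted p = 0.216) and 0.30 ± 0.10 (adjusted p = 0.828) at day 0 and day 5.

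The wild type reference at day 0 is a pair of libraries of different transcript pattern, and the choice between them decided several genotype values. Without replicate 1, leaving the Xist library to stand for wild type, 3 members were called: Slc22a2 (1.10, adjusted p = 0.0115), Slc22a6 (1.45, adjusted p = 0.0134) and Slc22a12 (1.47, adjusted p = 0.00606). That fit called 3.37% of all tested genes at day 0. Without replicate 2, leaving the Y-linked library, no member was called, and the same differences were -0.011 (adjusted p = 0.998), 0.46 (adjusted p = 0.888) and 0.39 (adjusted p = 0.897). With the pattern as a covariate the day 0 differences were 0.26 ± 0.16 for Slc22a2 (adjusted p = 0.532), 0.64 ± 0.18 for Slc22a6 (adjusted p = 0.163) and 0.67 ± 0.20 for Slc22a12 (adjusted p = 0.203). The lone library in the fits without a replicate is assumed to vary like the other groups.

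No member passed the test of a difference between genotypes in the response to obstruction. Limma, edgeR and DESeq2 each called 0 of 9 members, against 0.00553% of all tested genes with limma, and 1 member had an unadjusted p under 0.05 in limma, against 7.59% of all genes. That member was Slc22a5, whose fall was 0.62 ± 0.21 log2 units smaller in knockout (adjusted p = 0.589), or 0.44 ± 0.13 with the pattern as a covariate (adjusted p = 0.451). For Slc22a6 the difference in response was -0.25 with a 95% interval of -1.04 to 0.53, and for Slc47a1 it was -0.02 (-0.35 to 0.31). The interval of Slc22a8 was the widest, from -1.28 to 3.68.

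**Figure D4:**
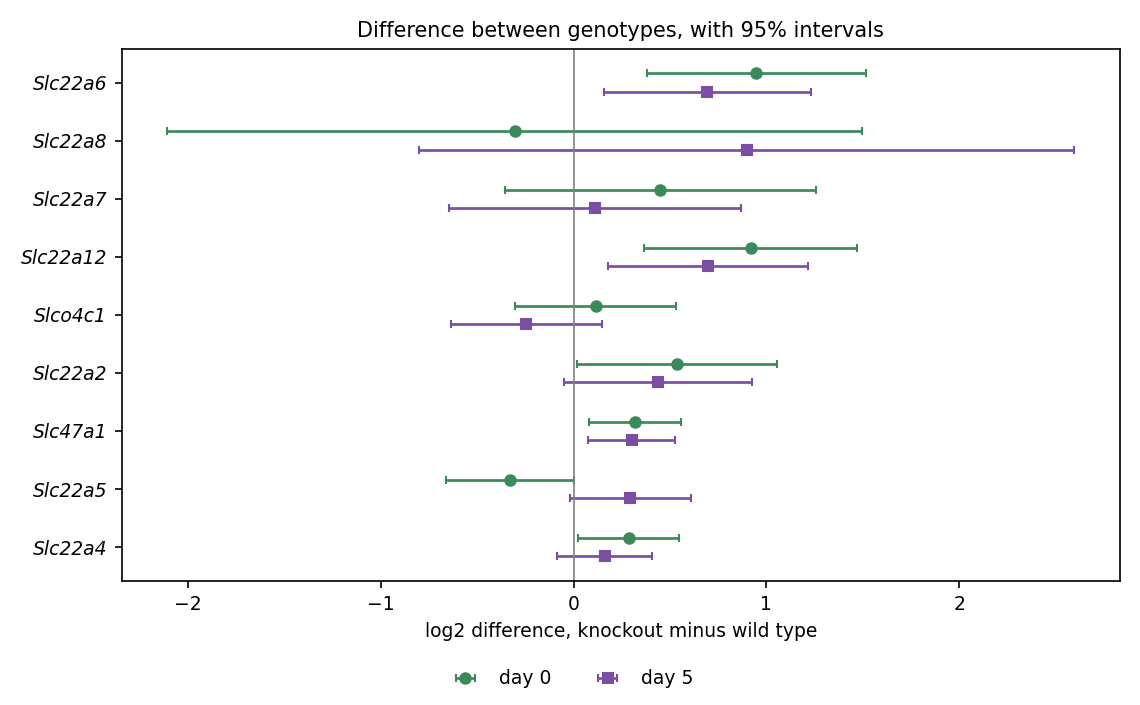
Log2 difference between knockout and wild type of each transporter gene at day 0 (circles) and day 5 (squares), with unadjusted 95% intervals. The intervals of Slc22a6, Slc22a12 and Slc47a1 lie above 0 on both days, although no limma adjusted p passed 0.05. The intervals of Slc22a8 are the widest.

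The 2 transcript patterns divided the members. All 4 knockout libraries at day 0 were Y-linked, so they add nothing to the size of a difference within groups. It rests on 1 Y-linked library against 1 Xist library in wild type at day 0, and 1 against 2 in each genotype at day 5. Within groups, Y-linked libraries held more Slc22a6 (0.61 ± 0.14 log2 units, adjusted p = 0.0171) and Slc22a2 (0.55 ± 0.13, adjusted p = 0.0195). They held less Slc22a8 (-2.34 ± 0.24, adjusted p = 8.44e-05) and Slc22a5 (-0.37 ± 0.08, adjusted p = 0.0124). These 4 of 9 members compare with 7.94% of all tested genes called in limma. Slc22a12 (0.50 ± 0.16, adjusted p = 0.0778) and Slco4c1 (0.38 ± 0.12, adjusted p = 0.0777) did not pass, nor did Slc22a4, Slc22a7 and Slc47a1. Without wild type day 5 replicate 3 only Slc22a8 was called, with 0.54 for Slc22a6 (adjusted p = 0.113), 0.59 for Slc22a2 (adjusted p = 0.0651) and -0.32 for Slc22a5 (adjusted p = 0.0936). Slc22a5 was also not called without knockout day 5 replicate 2 (-0.30, adjusted p = 0.136). Without wild type day 0 replicate 1, Slc22a6 stood at 0.49 (adjusted p = 0.0596) and Slc22a2 at 0.36 (adjusted p = 0.0508), and without replicate 2 at 0.49 (adjusted p = 0.0596) and 0.36 (adjusted p = 0.0506).

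Of the members, Slc22a8 had the largest pattern difference. At day 0 its single Xist library held 713 scaled CPM and the 5 Y-linked libraries 349 to 424, with a median of 398. By day 5 the 4 Xist libraries held 75.0 to 189.8 (median 117) and the 2 Y-linked libraries 12.1 and 21.0. In a fit with a separate pattern term for each day, Y-linked libraries were lower at day 5 by a log2 difference of -2.84 ± 0.12 (adjusted p = 7.86e-09). At day 0 no knockout library held Xist, so the difference within groups, -1.03, is wild type replicate 1 against replicate 2, 1 library each, and is given with no test. The change between days was -1.81 (limma, adjusted p = 0.00306, from 0.00158 to 0.0377 over the alternatives), and such a change was called for 0.453% of all tested genes. This p takes the spread of the day 0 pair from the other groups, so the size of the change has no replicate check at day 0. In libraries of one pattern, the log2 fold change of Slc22a8 was -4.80 in wild type Y-linked libraries, 1 at each day, and -4.22 in knockout Y-linked libraries, 4 at day 0 and 1 at day 5. In wild type Xist libraries, 1 at day 0 and 2 at day 5, it was -3.06. These values have no replicate check of their own. Proximal tubule markers moved in part with the pattern. Their sum was 3546 in the Y-linked library of wild type at day 5 against 3932 and 4627 in the Xist libraries, and 3999.9 against 5927 and 6621 in knockout, and 6 of the 10 were called lower in Y-linked libraries. Their part in the Slc22a8 result was not tested.

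For Slc22a7 the order of the libraries differed between days. The Y-linked libraries held more of it at day 0, with 317 to 507 scaled CPM in 5 libraries against 212 in the Xist library, and less at day 5, with 33.6 and 49.4 against 55.8 to 94.5. Within groups the difference was 1.14 at day 0, again 1 library against 1, and -0.81 ± 0.21 at day 5 (adjusted p = 0.0352). The change between days, -1.95, did not pass (limma, adjusted p = 0.0642). With 1 library left out it ranged from -1.45 without knockout day 5 replicate 2 (adjusted p = 0.223) to -2.45 without wild type day 5 replicate 3 (adjusted p = 0.00835). It also passed without knockout day 0 replicate 4 (-1.93, adjusted p = 0.0368) or wild type day 5 replicate 1 (-2.08, adjusted p = 0.0327). The pattern difference at day 5 also passed for Slc22a5 (-0.46 ± 0.08, limma adjusted p = 0.00291), as it did for Slc22a8 above. It did not pass there for Slc22a4, Slc47a1 and Slco4c1. Nor did it pass for Slc22a2 (0.34 ± 0.10, adjusted p = 0.0597), Slc22a6 (0.47 ± 0.14, adjusted p = 0.0664) or Slc22a12 (0.28 ± 0.15, adjusted p = 0.281). Their day 0 values, each wild type replicate 1 minus replicate 2, were 1.11, 1.0 and 1.09. In this fit 7.45% of all tested genes were called at day 5.

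**Figure D5:**
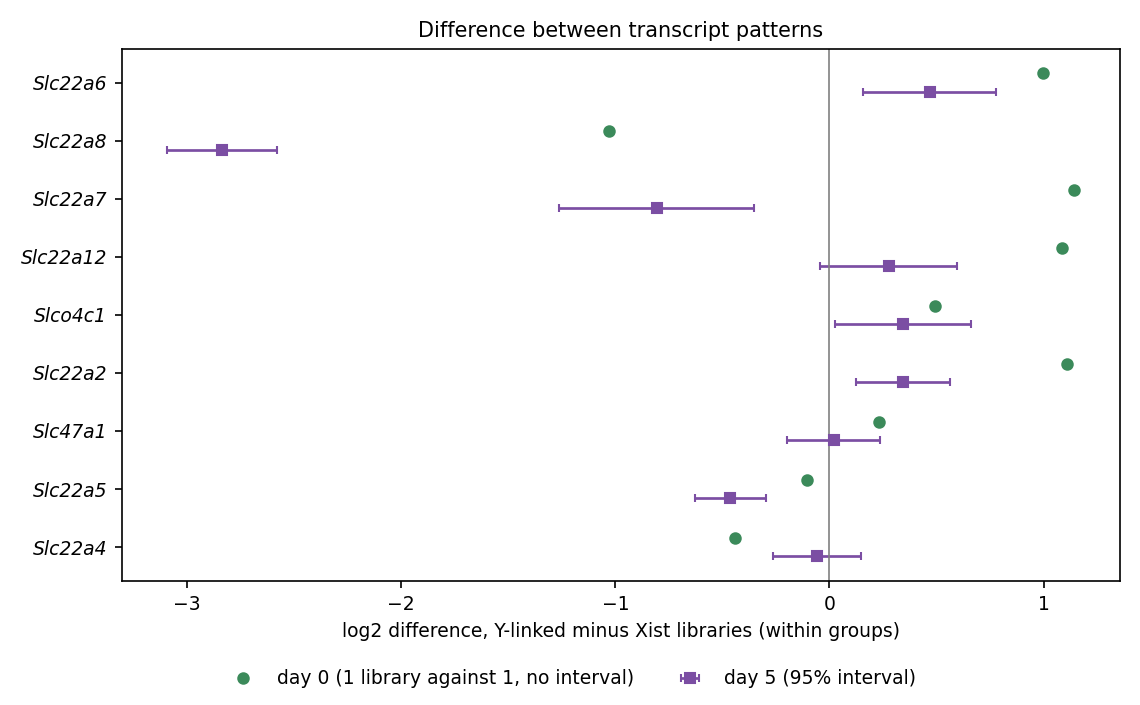
Log2 difference between libraries with Y-linked transcripts and libraries with Xist for each transporter gene, within groups, at day 0 (circles, 1 library against 1 and so no interval) and day 5 (squares, with unadjusted 95% intervals). Slc22a8 lies below 0 on both days, and Slc22a7 lies above 0 at day 0 and below 0 at day 5.

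The shape of each member's profile over the 12 libraries was compared with those of 12981 other genes by the root mean square distance of centred log2 values, as a description. Slc22a6 and Slc22a12 were close to each other (0.20 log2 units) and shared both nearest genes, Pecr, a peroxisomal reductase of fatty acid metabolism (0.18 and 0.20), and Macrod2 (0.23 and 0.18). Slc22a2 was nearest to Hykk, a lysine-pathway kinase (0.12). The nearest genes of Slc47a1 were Akr1a1, an aldehyde reductase (0.09), and Pmpcb, a mitochondrial processing peptidase (0.10). Slc22a4 was nearest to Pcdh17 (0.10) and Ccs, the copper chaperone of superoxide dismutase (0.10), and Slc22a5 to the mitochondrial ribosomal RNA mt-Rnr1 (0.11) and Galm (0.12). Slco4c1 was nearest to the sulfate transporter gene Slc26a1 (0.20) and the fatty acid transporter gene Slc27a2 (0.22). Slc22a8 was nearest to Spp2 (0.24) and the phosphate transporter gene Slc34a3 (0.37). These 2 genes differed between the patterns by -2.27 and -1.68 log2 units. They were picked for closeness to Slc22a8 over the same libraries, so a shared pattern difference follows from that choice and is no separate result. Slc22a7 had no close neighbour, its nearest being Aspdh (0.33) and the brush border protease gene Mep1b (0.34).

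Other genes of the same transport systems were mixed, some lower and some higher at day 5. Over all tested genes limma called 24.5% higher and 22.6% lower in wild type, and 29.4% and 25.4% in knockout. Of 16 tested other SLC22 genes, 2 were higher and 7 lower in wild type (median -1.61), and 1 higher and 9 lower in knockout (median -1.03). Slc22a18 fell in both genotypes (log2 -2.23 ± 0.12, wild type, and -2.10 ± 0.10, knockout, with limma adjusted p = 1.18e-07 and 2.72e-08). So did the prostaglandin transporter gene Slc22a22 (-3.04 ± 0.37 and -3.13 ± 0.31). Slc22a15 rose by 1.86 ± 0.18 and 2.07 ± 0.15, from a mean of 4.29 to 16.9 scaled CPM in wild type. Of 9 tested other genes of the SLCO and MATE families, 3 were higher and 2 lower in wild type (median 0.44). In knockout 4 were higher and 4 lower (median -0.23). These counts show no general fall of those families. Slco4a1, a relative of Slco4c1, rose by 1.43 ± 0.25 and 1.61 ± 0.21 (adjusted p = 5.11e-04 and 3.88e-05), and the prostaglandin transporter gene Slco2a1 by 0.79 ± 0.12 and 0.91 ± 0.10.

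Among 13 efflux pumps and urate transporters of either membrane, 1 was higher and 7 lower in wild type (median -1.12). In knockout 6 were higher and 6 lower (median -0.47). The genes of this list named next have its smallest adjusted p and all fell, so they leave out the 6 that rose. Abcg2, a urate and drug efflux pump, fell (log2 -1.55 ± 0.09 and -1.37 ± 0.08, adjusted p = 1.62e-07 and 5.87e-08). The phosphate and urate transporter gene Slc17a1 fell too (-1.38 ± 0.15 and -1.64 ± 0.13), as did Abcc2, the gene of the efflux pump MRP2 (-1.33 ± 0.15 and -1.23 ± 0.13). Of 13 genes that supply gradients, scaffolds or regulators, 0 were higher and 11 lower in wild type, and 0 higher and 12 lower in knockout. Pdzk1, an apical scaffold that binds URAT1 and OCTN2, fell (-1.75 ± 0.13 and -1.46 ± 0.10). Hnf4a, a regulator of proximal tubule genes, changed by -1.55 ± 0.13 and -1.07 ± 0.10 (adjusted p = 9.65e-07 and 2.89e-06). All 8 genes of carnitine synthesis and use were lower in wild type and 7 of 8 in knockout, among them Aldh9a1 (-1.69 ± 0.12 and -1.71 ± 0.10) and the carnitine acetyltransferase gene Crat (-1.06 ± 0.10 and -1.09 ± 0.09).

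Cell type markers moved with the fall of the members. The summed level of the 10 proximal tubule markers was 17239 to 18872 scaled CPM in wild type at day 0 and 3546 to 4627 at day 5, and 17699 to 18879 and 3999.9 to 6621 in knockout. Of these markers, 10 were lower in wild type and 9 in knockout, with median log2 fold changes of -2.36 and -1.48. The 6 macrophage markers summed to 167 to 173 scaled CPM at day 0 and 758 to 921 at day 5 in wild type, and to 172 to 230 and 818 to 1147 in knockout. All 4 fibroblast markers were higher in both genotypes (medians 2.40 and 2.22), while among 4 endothelial markers 1 was lower in each. No marker in these lists was at 0 in a whole group. In whole-kidney RNA, fewer proximal tubule cells and less transporter RNA per cell cannot be told apart.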

How the data were processed

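The authors deposited 1 table of CPM values. Per the submitters' processing notes, the tools named are STAR, SAMtools and HTSeq and the build is GRCm38.p6, with no versions. Reads were 50 bases long per the labels' protocols. Dividing each column by its smallest step gave whole reads for 100% of 665652 values (tolerance 0.001), and 1 read was 0.0515 to 0.0604 CPM. Log2(CPM / TMM factor + 0.5) was fitted with limma 3.58.1 (trend) in R 4.3.3 over 4 groups and 12 libraries. Genes were kept by filterByExpr (minimum count 10, total 15), which left 18093, and p-values were adjusted by Benjamini-Hochberg. The edgeR 4.0.16 test on recovered reads, DESeq2 1.42.0 and the settings of the closing section were alternatives. Library pattern was set by whether summed Y-linked CPM exceeded Xist.

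The members, gene lists and tests were chosen with earlier results of these data known. Genes named outside the members are up to 4 per list with the smallest adjusted p over both obstruction comparisons, the regulator Hnf4a, and the 2 nearest profiles of each member. Some genes that this rule names are not reported here. Replicate numbers follow accession order. In simulated data limma recovered 49.0% of 2-fold and 79.8% of 4-fold changes for obstruction in wild type (17569 genes), and 60.2% and 83% in knockout (17577 genes). Of its calls there, 7.30% and 7.19% were false. The simulation changed few genes, whereas limma called many in the real obstruction comparisons, so the rates there may differ. Lists of urothelial, lymphocyte, erythroid, hepatocyte, podocyte, thick limb and distal markers had wild type medians of 2.03, 1.37, 2.22, -1.36, -0.64, -0.73 and -1.43 and knockout medians of 1.49, 0.81, 0.23, -0.70, -0.22, -0.62 and -0.81. Figures were drawn with matplotlib 3.10.9.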

Additional observations from a re-analysis of the deposited data

Results flagged for a closer look

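For Slc22a8 the difference between libraries with Y-linked transcripts and libraries with Xist was larger at day 5 than at day 0, by a log2 change of -1.81 (limma, adjusted p = 0.00306). It kept its direction in each of 20 alternatives, between -1.91 and -1.71. The day 0 side is 1 library against 1, both wild type, with its spread taken from the other groups. In knockout kidneys at day 0, Slc22a4 in replicate 3 stood apart at 75.0 scaled CPM from the other 3 libraries at 69.8 to 70.5, a gap of 0.877 of the whole range, above Dixon's 95% critical value for 4 samples. The whole range is small against the fall during obstruction. Chance marks about 5% of such groups, and 9 were examined.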

How the results depend on the processing

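All 9 members were lower at day 5 in both genotypes under every alternative except that 8 were called without wild type day 0 replicate 2 or knockout day 5 replicate 2. Scaling by library size only raised the median change over genes by 0.37 (wild type) and 0.38 (knockout), and the members still fell. Members called for genotype at day 0 numbered 2 with DESeq2 and 0 to 3 with each library left out. Members called between transcript patterns numbered 1 to 6, and for a day-dependent pattern difference 1 to 2, with each library left out. Without a wild type day 0 library the latter could not be fitted, and DESeq2 was not run for the pattern tests. Directions that turned belonged to differences that had not passed. The differences in response ranged, with each library left out, from -0.785 to 0.299 for Slc22a12, -0.672 to 0.437 for Slc22a2, -0.368 to 0.0766 for Slc22a4, -0.77 to 0.22 for Slc22a6, -0.93 to 0.21 for Slc22a7 and -0.153 to 0.0776 for Slc47a1. Genotype differences at day 0 ranged from -0.011 to 1.1 for Slc22a2, -0.11 to 1.03 for Slc22a7, -0.81 to 0.22 for Slc22a8 and -0.12 to 0.37 for Slco4c1, and at day 5 from -0.20 to 0.54 for Slc22a7 and -0.0182 to 1.87 for Slc22a8. Pattern differences ranged from -0.79 to 0.31 for Slc22a7, and their change between days from -0.324 to 0.0252 for Slco4c1. The covariate fit takes the pattern difference to be equal at both days, although that of Slc22a8 changed between days. With the pattern as a covariate, the day 0 genotype difference was 0.87 for Slc22a8 and -0.0768 for Slco4c1, and the difference in response was 0.18 for Slc22a2, 0.0518 for Slc22a6, 0.0268 for Slc22a12 and 0.0221 for Slc47a1. With library size alone the last of these was 0.0123. In Y-linked libraries alone, the day 0 genotype difference was -0.028 for Slc22a2, -0.13 for Slc22a7, 0.20 for Slc22a8 and -0.14 for Slco4c1. At day 5 it was -0.0229 for Slc22a4 and -0.54 for Slc22a7, and the difference in response was 0.29 for Slc22a2, 0.0421 for Slc22a12 and 0.21 for Slc47a1. The cause of these turns was not tested. No paired analysis was possible because the labels link no day 0 kidney to a day 5 kidney. Replicate numbers carry no pairing.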

Other observations

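Some other SLC22 genes showed larger pattern differences than most members. The 4 genes named here were chosen after their values were seen, so they do not stand for the family. Within groups, libraries with Y-linked transcripts held more Slc22a30 (3.00 ± 0.33 log2 units, limma adjusted p = 1.19e-04) and Slc22a28 (2.03 ± 0.30, adjusted p = 0.00141). They held less Slc22a29 (-3.55 ± 0.29, adjusted p = 1.12e-05) and Slc22a27 (-1.80 ± 0.28, adjusted p = 0.00161). Of 16 tested other SLC22 genes, 2 were higher and 7 lower in Y-linked libraries, against 7.94% of all tested genes called in either direction. Slc22a30 is a neighbour of Slc22a8 on chromosome 19, 186143 bases away, and had the opposite direction.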
